A study of Homo sapiens with 4 samples.

Results

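Undifferentiated H1 human embryonic stem cells were compared with CD31+CD43+ blood progenitors sorted from the same line on day 7 of culture towards blood, to describe which transcripts were retained, lost and gained from end to end. The comparison takes in every gene of both deposited tables, joined on gene symbol; 17630 genes remained of 17634 rows after 4 rows under 2 repeated names were dropped, and 2 of the 4 libraries of the series carry the comparison. The undifferentiated cells (hESC) were collected before any factor was added, and no sort is described for them. The progenitors (HPC) were reached through activin A (40 ng/ml) plus BMP4 (50 ng/ml) for 2 days and VEGF (40 ng/ml) plus bFGF (50 ng/ml) for 2 more, followed by 3 days in which SB-431542, a blocker of the receptor kinases for activin and NODAL, was added to VEGF and bFGF. The intermediate libraries were APLNR+ mesoderm-stage cells (MES, day 2) and CD31+CD34+ cells (HEP, day 4), both sorted from the same culture scheme, and they are used only to date a loss or a gain. All 4 populations derive from a single cell line, H1, and each is 1 library. Values thus come without replicate error, differences without a replicate check, and samples could not be tested against each other. Differences are therefore described by size.

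Pluripotent stem cells keep themselves undifferentiated through a small circuit of transcription factors around OCT4 (encoded by POU5F1), SOX2 and NANOG, and they are joined to each other by epithelial junctions. On the way to blood, mesoderm forms endothelium, and part of that endothelium becomes blood; the first blood cells of the embryo are mostly primitive red cells carrying embryonic globins, megakaryocytes and macrophages. GATA1, GATA2, TAL1, LMO2 and NFE2 are transcription factors of the red cell and megakaryocyte lineages, and LIN28A is an RNA-binding protein that blocks maturation of let-7 microRNAs in stem cells.

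Promoters of 2 gained and 2 lost genes are printed because the gained pair shares letters known as core sites of GATA factors and of NF-E2 and AP-1 factors. Whether any of these factors acts on the 2 genes was not tested. The window runs from 250 bases before to 50 bases after the transcription start in RefSeq (GRCh38.p14). ALAS2, the first enzyme of haem synthesis in red cells, lies at chrX:55030928-55031227 on the minus strand, and HBD, the delta-globin gene, at chr11:5234434-5234733 on the minus strand. SOX2 lies at chr3:181711675-181711974 and L1TD1, a stem cell RNA-binding protein derived from a transposon, at chr1:62194599-62194898, both on the plus strand. Capitals mark the GATA core AGATAA and the core TGACTCA shared by NF-E2 and AP-1 factors, either as written or as the reverse complements TTATCT and TGAGTCA; the cores do not overlap each other here.
ALAS2: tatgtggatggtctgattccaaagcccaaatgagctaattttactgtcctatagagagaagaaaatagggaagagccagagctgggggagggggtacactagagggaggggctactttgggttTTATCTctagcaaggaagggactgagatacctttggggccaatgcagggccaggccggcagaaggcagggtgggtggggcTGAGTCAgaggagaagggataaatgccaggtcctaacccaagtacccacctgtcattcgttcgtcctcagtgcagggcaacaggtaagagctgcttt
HBD: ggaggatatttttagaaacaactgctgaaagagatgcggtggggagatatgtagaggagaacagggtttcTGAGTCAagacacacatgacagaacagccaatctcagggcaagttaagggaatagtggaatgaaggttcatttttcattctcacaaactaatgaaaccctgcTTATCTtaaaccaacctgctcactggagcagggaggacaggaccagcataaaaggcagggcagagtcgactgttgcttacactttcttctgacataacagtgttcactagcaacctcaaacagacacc
SOX2: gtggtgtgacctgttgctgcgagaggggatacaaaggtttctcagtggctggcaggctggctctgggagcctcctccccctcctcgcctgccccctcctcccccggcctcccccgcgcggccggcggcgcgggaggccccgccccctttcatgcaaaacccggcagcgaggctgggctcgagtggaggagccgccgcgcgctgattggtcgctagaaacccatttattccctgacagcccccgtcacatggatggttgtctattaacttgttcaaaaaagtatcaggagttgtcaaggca
L1TD1: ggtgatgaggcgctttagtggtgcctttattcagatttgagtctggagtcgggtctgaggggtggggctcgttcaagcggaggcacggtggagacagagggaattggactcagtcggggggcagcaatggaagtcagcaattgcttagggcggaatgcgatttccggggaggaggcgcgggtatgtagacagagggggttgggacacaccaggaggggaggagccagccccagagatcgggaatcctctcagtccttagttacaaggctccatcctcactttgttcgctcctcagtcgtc
In ALAS2 the GATA core began 127 bases and the NF-E2 and AP-1 core 47 bases upstream of the start. In HBD the NF-E2 and AP-1 core began 180 bases and the GATA core 78 bases upstream. Neither core occurred in the windows of SOX2 and L1TD1. Over the 14121 genes with a RefSeq window, 945 (6.69%) held the GATA core on either strand and 484 (3.43%) the NF-E2 and AP-1 core. Both are thus uncommon in windows of this length. The ALAS2 and HBD windows held 3 and 2 CpG dinucleotides, and those of SOX2 and L1TD1 held 20 and 14. These matches describe letters, not binding. The genes were picked after their values and windows had been seen, and no share over all gained or lost genes is given because only 68.9% of gained and 77.7% of lost genes had a window in the table.

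The labels were read against the markers. POU5F1 stood at 1582 in hESC and 15.4 in HPC, and LIN28A at 442 and 98.7. HBE1, the embryonic epsilon-globin, stood at 0.39 in hESC and 442 in HPC, and NFE2 at 0.45 and 89.7. SPN, which encodes the sorted antigen CD43, was at 0.11 in hESC and 24.4 in HPC. PECAM1, which encodes CD31, was at 0.01 and 7.49, a low value for an antigen that the sort required. CD45 itself, encoded by PTPRC and carried by most mature white cells, was near 0 in both libraries (0.03 and 0.04), a gene singled out after its values were seen. None of the markers and sort antigens named here differed between hESC and HPC against the labels. PECAM1 was lower still in HEP, at 1.83, although that library was also sorted on CD31.

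Values are the normalised expression signal per gene that the authors deposited, and a log2 difference is HPC minus hESC of log2(value + 1), which compresses differences of genes with low values. The calls higher and lower needed a 2-fold difference on this scale and 5 or more in the higher library. Gained genes were below 1 in hESC and at 5 or more in HPC, lost genes the converse, and retained genes were at 5 or more in both with a log2 difference under 1 in size. Genes at 1 or more in either library counted as detected, which 11479 did. A gene under 1 in hESC was thus detected only through HPC, and one below 5 in hESC could not be called lower. The converse held for genes low in HPC.

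By these rules 3155 of the 11479 detected genes were retained (27.5%), 2778 were lower in HPC (24.2%), of which 377 were lost (3.28%), and 822 were higher (7.16%), of which 235 were gained (2.05%). Retained genes carried most of the signal at both ends, 65.4% of the summed values in hESC and 76.5% in HPC. Gained genes went from 0.0176% to 1.64% of the sum, and lost genes from 1.06% to 0.0541%. Across the 16581 genes above 0 in either library the Spearman correlation between hESC and HPC was 0.815, a description across genes, which are not independent. The median log2 difference over detected genes was -0.49, so an ordinary gene was lower in HPC on the deposited scale. The surplus of lower over higher calls depended on that scale. Higher calls made up 22.8% of all calls as deposited, 33.5% with both libraries at a common total (1101 higher and 2186 lower) and 49.4% with median-of-ratios scaling (1583 higher and 1621 lower), which shifts each log2 ratio by 0.60. Counts below are best read against this median: a member at -0.49 did what a typical gene did. Counts of a list are likewise read beside the 24.2% lower and 7.16% higher of all detected genes. Of these, 6639 stood at 5 or more in hESC, as a lower call requires. In HPC 5246 stood at 5 or more, as a higher call requires, and lists differ in these shares.

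**Figure D1:**
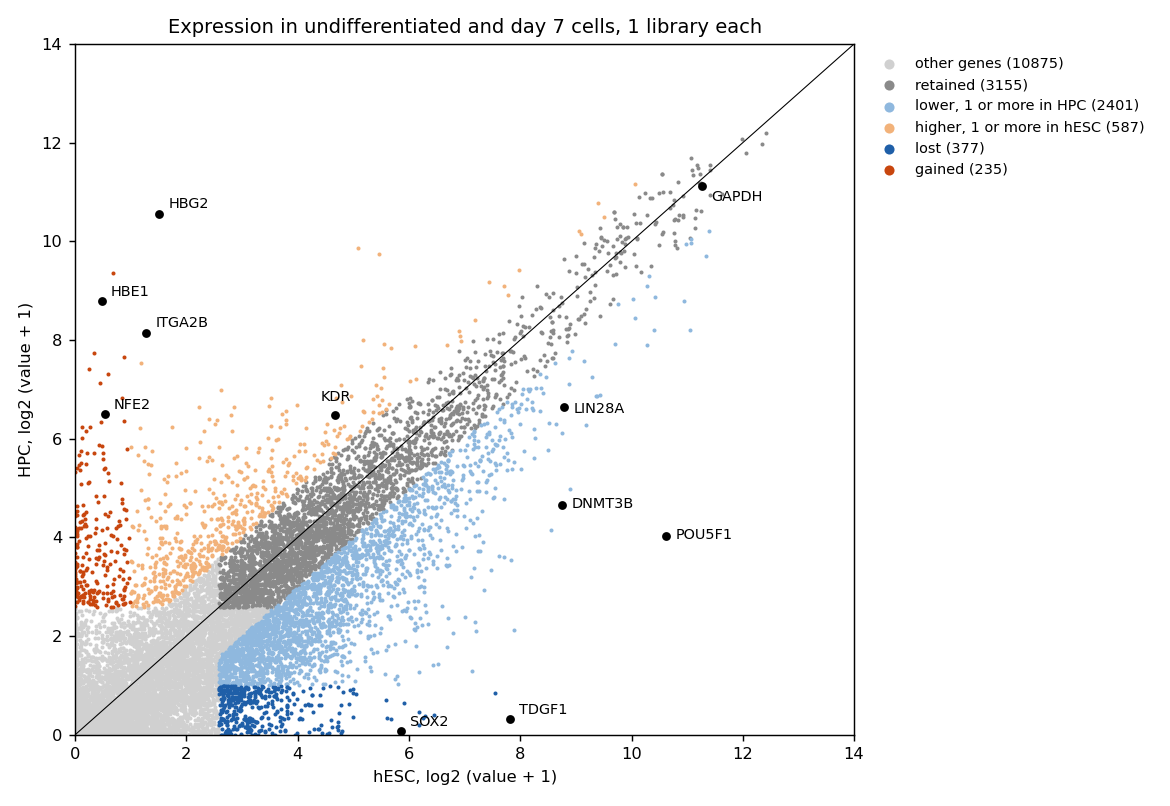
Each point is a gene, at log2(value + 1) in hESC on the horizontal axis and in HPC on the vertical axis (1 library each, no replicates); colours give the 235 gained, 377 lost and 3155 retained genes and the other higher and lower genes, and the line marks equal values. Globins and ITGA2B lie in the upper left corner, POU5F1, TDGF1 and SOX2 at the lower right, and LIN28A between them and the line of equal values.

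Differences also followed the GC content of the transcripts. Over the 6312 genes whose mean of both libraries was at least 5, the Spearman correlation between the log2 difference and GC content was 0.55, against -0.08 for transcript length. These genes were cut into 10 groups of equal size by GC content. At the low end (32.0% to 40.9% GC) the median difference was -1.83 and 81.3% were called lower. At the high end (62.2% to 74.1% GC) the median was 0.23 and 7.91% were called lower. The trend was not specific to the end points: the correlation was 0.23 from hESC to MES, 0.73 from MES to HEP and -0.42 from HEP to HPC. With 1 library a side, a trend of the library and a trend of the cells cannot be told apart. The main counts, and those of a list where they change, are therefore also given with the GC trend removed. The trend was the running median of the difference along GC content, and its removal centres the libraries on each other as well. The removal was not complete. A correlation of 0.09 with GC content remained, and the median difference was -0.26 at the low end and 0.04 at the high end.

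With the trend removed, 1195 genes were lower (10.4% of those detected) and 1161 higher (10.1%), 201 were lost (1.75%), 281 gained (2.45%) and 3925 retained (34.2%). Of the 235 gained and 822 higher genes, 230 and 780 were called under both treatments, and of the 377 lost and 2778 lower genes 189 and 1156. The centring alone favours higher calls and ends lower ones: median-of-ratios scaling, which has no GC step, kept all 822 higher and 235 gained genes but 1621 of the lower and 216 of the lost ones. These shares therefore do not show that gains were firmer than losses. The 1622 lower calls that ended had a median GC content of 42.2%, and the 1156 that stayed one of 49.9%; among lost genes the figures were 41.4% and 55.1%. No gene lower under one treatment was higher under the other. Below, a statement that a call ended refers to this removal, and counts of a list after it are read beside 10.4% lower and 10.1% higher.

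**Figure D2:**
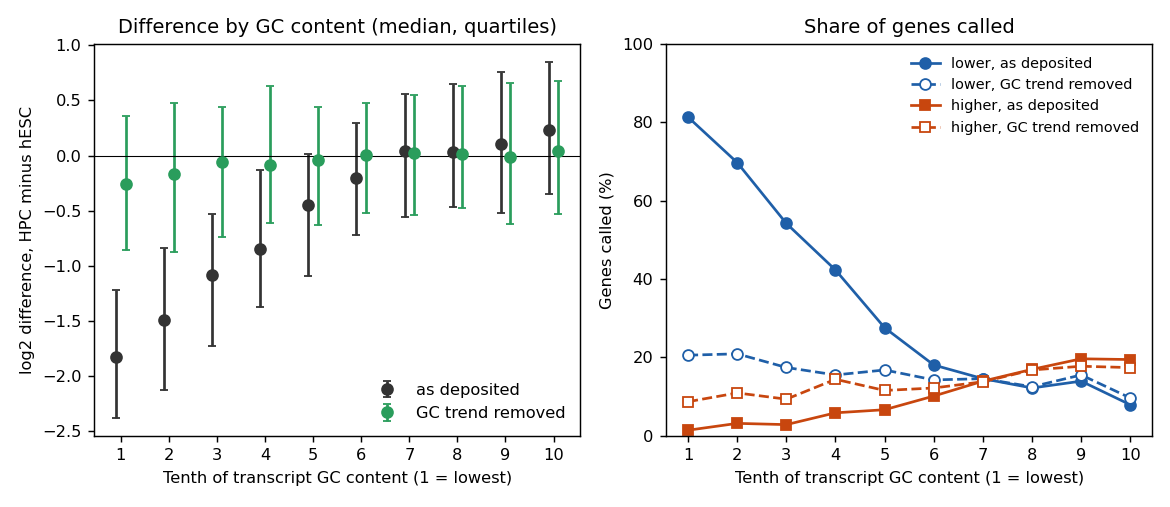
Left, the median log2 difference (HPC minus hESC) with quartiles as bars in 10 groups of rising GC content, as deposited and with the GC trend removed (631 or 632 genes a group); right, the share of genes called lower or higher in each group. The share called lower falls from 81.3% to 7.91% along GC content as deposited, and lies between 9.65% and 20.9% with the trend removed.

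The largest single losses were of stem cell genes. TDGF1, the NODAL co-receptor CRIPTO, went from 225 in hESC to 0.24 in HPC (log2 difference -7.51; -6.94 with the GC trend removed). L1TD1 went from 187 to 0.80 (-6.71; -5.44) and POU5F1 from 1582 to 15.4 (-6.59; -6.39). SOX2 went from 56.7 to 0.05 (-5.78; -5.61). Each of these 4 lay far beyond the median gene at -0.49. Reads of TDGF1 and POU5F1 may be shared with transcribed near-identical pseudogenes, and the deposited values do not show how such reads were assigned.

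The other 11 of the 15 largest decreases held 2 more members of the pluripotency list, USP44 and SFRP2, and 9 genes outside it. USP44, a deubiquitinase of the mitotic checkpoint, went from 86.6 to 0.32, and RARRES2, which encodes the chemoattractant chemerin, from 139 to 1.46. LCK, known as a T cell kinase, was high in hESC at 71.9 and at 0.14 in HPC. CRABP1, a retinoic acid carrier, went from 71.8 to 0.37, and LECT1, which encodes chondromodulin, from 77.6 to 0.30. SLC7A3, a transporter of cationic amino acids, went from 49.9 to 0.25 and POLR3G, a subunit of RNA polymerase III, from 47.6 to 0.27. AASS, which begins lysine breakdown, went from 146 to 3.27, and UGP2, which makes UDP-glucose, from 234 to 3.35. SFRP2, a secreted WNT binder, went from 59.4 to 0.57, and PDZD4 from 75.1 to 0.26. All 15 were called lower under both treatments of GC content. The smallest of the 15 differences with the trend removed was that of AASS (-3.95).

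**Figure D3:**
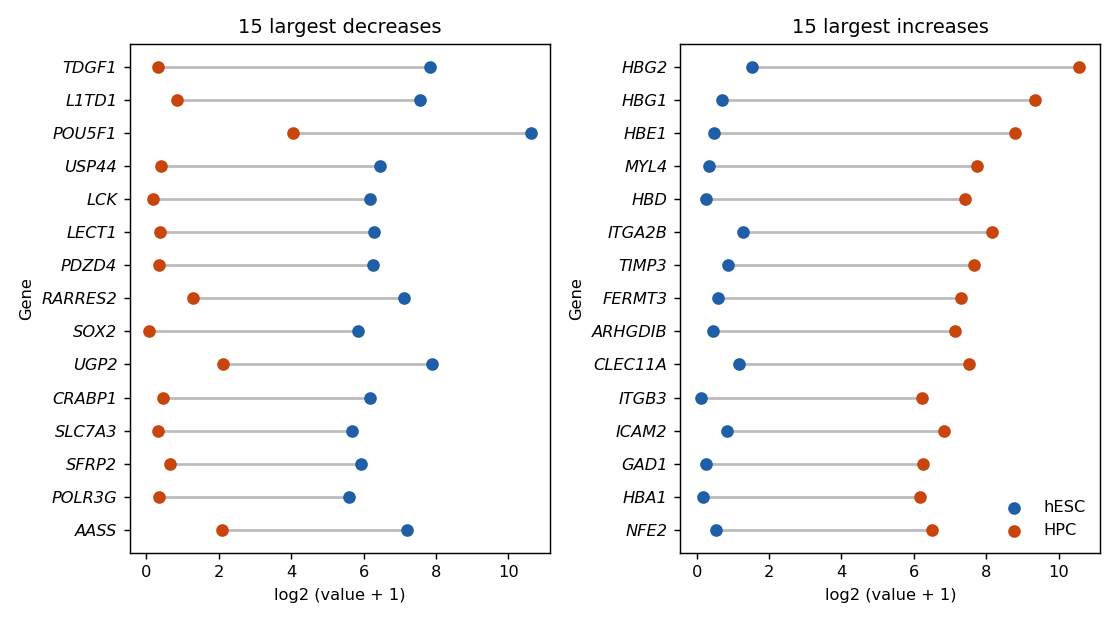
log2(value + 1) in hESC (blue) and HPC (orange) for the 15 genes with the largest differences in each direction among genes at 10 or more in the higher library; 1 library a side. POU5F1 is the 1 gene of the left panel with more than 5 left in HPC (15.4), and 12 of the 15 genes of the right panel started below 1 in hESC.

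Across the pluripotency list, 20 of the 27 detected members were lower in HPC, beside 24.2% of all detected genes. The count of 20 was the same with the GC trend removed. None was higher, beside 7.16% of all detected genes, but a higher call requires 5 or more in HPC. As deposited, 5 of the 27 stood there, and all 5 were lower. The list's median difference was -4.09 as deposited and -3.64 with the trend removed. Members summed to 3488, 1288, 313 and 85.1 in hESC, MES, HEP and HPC. NANOG went from 53.8 to 1.28, PRDM14 from 23.6 to 0.11 and ZFP42, which encodes REX1, from 144 to 3.88; these 3 were singled out after their values were seen. 10 members were lost outright.

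Another 5 lower members kept 5 or more in HPC, so loss of the programme was not complete in this bulk library. DNMT3B, the de novo DNA methyltransferase of stem cells, went from 430 to 24.4 and kept 5.67% of its stem cell value. POU5F1 kept 0.974% and DPPA4, a chromatin-associated stem cell protein, 5.37% (208 to 11.2). SALL4, a zinc finger factor of stem cells and of fetal and leukaemic blood, kept 22.9% (26.9 to 6.16). CD9, a tetraspanin also carried by megakaryocytes and platelets, went from 63.7 to 8.45. By rank, POU5F1 moved from 46 of 17630 to 2475 and DPPA4 from 284 to 3193. In bulk samples, fewer cells with a transcript and less of it per cell cannot be told apart, so a few remaining stem cells and a low level in all cells give the same value.

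LIN28A belongs to another list and kept a share close to that of SALL4. Its 98.7 in HPC was 22.3% of its 442 in hESC, and its rank among 17630 genes went from 168 to 424. Ranks, like other comparisons between genes here, assume values per transcript length, which the sources do not state. The difference was -2.15 as deposited and -1.46 with the trend removed, a lower call under both. LIN28B, its paralogue, went from 24.4 to 5.87 (-1.89), but its call ended with the trend removed (-0.65). Of the 10 detected LIN28 and fetal RNA-binding genes, 5 were lower and 1 higher, and 4 and 1 with the trend removed. TRIM71, an RNA-binding ubiquitin ligase that is a let-7 target, went from 70.1 to 8.78, and HMGA2, an architectural chromatin protein, from 24.9 to 3.89. IGF2BP3 went from 40.4 to 4.44.

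Other members of that list hardly moved. IGF2BP1, an mRNA-binding protein of embryonic and fetal cells, stood at 32.3, 34.7, 30.1 and 26.2 in hESC, MES, HEP and HPC (difference -0.29; -0.04 with the trend removed). IGF2BP2 stood at 13.1 and 8.47, and HMGA1 at 325 and 191, both retained. IGF2, the fetal growth factor, was the member that went up, from 0.18 in hESC through 0.92 and 3.24 to 33.2 in HPC.

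DNA methylation enzymes parted in the same way. DNMT3B was lower, and DNMT3A, the other de novo enzyme, went from 25.9 to 11.1 (-1.15; -1.17). DNMT1, which copies methylation at replication, stood at 21.2 and 17.6 (-0.26), and its partner UHRF1 at 29.1 and 16.7 (-0.77), both retained. TDG, a glycosylase of demethylation, went from 21.6 to 8.94 and TET1, a methylcytosine dioxygenase, from 5.75 to 0.73. Both calls ended with the trend removed, leaving 2 of the 7 detected members lower in place of 4.

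Epithelial junction genes formed the other broad loss. Of 28 detected members 22 were lower and none higher (18 and none with the trend removed), with a median of -2.06 as deposited and -2.07 with the trend removed. Of the 28, 8 stood at 5 or more in HPC, as a higher call requires. CDH1, which encodes E-cadherin, went from 31.5 to 1.13 (-3.93; -3.47). EPCAM, an epithelial adhesion molecule, went from 46.3 to 1.36 and CLDN6, a claudin of stem cells, from 127 to 4.23. ESRP1, which directs epithelial splicing, went from 19.8 to 0.53, and GRHL2, an epithelial transcription factor, from 9.56 to 0.36. CRB3, of the apical polarity complex, went from 9.15 to 0.47.

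Simple keratins kept more of their level and passed through a peak. KRT18 stood at 332, 457, 515 and 129 in hESC, MES, HEP and HPC. KRT8 followed the same course, 218, 666, 673 and 46.7, and KRT19 stood at 115, 309, 176 and 27.7. All 3 were lower in HPC than in hESC. KRT8 and KRT18 dropped only after HEP, whereas KRT19 was highest in MES and in HEP still above its hESC value. JUP, which encodes plakoglobin of both desmosomes and adherens junctions, was retained at 11.8 and 14.7.

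Targets of activin and NODAL were measured because the last 3 days held the inhibitor. LEFTY1, a feedback antagonist, went from 6.97 to 0.15, SMAD7, the inhibitory SMAD, from 9.07 to 1.54, and FOXH1, a DNA-binding partner of SMAD2, from 14.7 to 1.59. SKIL, a repressor of SMAD targets, went from 30.9 to 0.80. In all, 5 of 12 detected members were lower and none higher, beside 24.2% and 7.16% of all detected genes. As deposited, 2 of the 12 stood at 5 or more in HPC, as a higher call requires. With the trend removed 5 were lower and 1 higher, beside 10.4% and 10.1%. TDGF1 and LEFTY1 also stand in the pluripotency list, so the counts of the 2 lists are not separate. The course was not a steady fall: the list summed to 417, 3428, 576 and 118 in hESC, MES, HEP and HPC. In MES, LEFTY1 (19.9) and SMAD7 (21.2) stood above hESC, and SKIL (16.9), FOXH1 (11.4) and TDGF1 (165) below it. In HEP, collected before the inhibitor was added, LEFTY1 stood at 0.85, SKIL at 3.53, FOXH1 at 4.58 and TDGF1 at 5.03. SMAD7 was still at 13.9 in HEP. The part of the inhibitor in these differences was not tested, since no library was made without it.

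Several large lists of general cell machinery had many lower members as deposited and fewer with the GC trend removed. Cell cycle and replication genes had 24 of 39 detected members lower and 3 higher as deposited, and 10 lower and 3 higher with the trend removed. Proteasome subunits had 17 of 37 lower as deposited and 4 with the trend removed, both beside none higher. Aminoacyl-tRNA synthetases had 10 of 17 lower and then 6, and mitochondrial ribosome genes 24 of 77 and then 7. Zinc finger genes named ZNF had 105 of 385 lower and then 36, and polycomb and chromatin genes 12 of 24 and then 6. Beside them, all detected genes were lower in 24.2% of cases as deposited and in 10.4% with the trend removed. After the removal the shares of proteasome (10.8%), ZNF (9.35%) and mitochondrial ribosome genes (9.09%) came close to that of all genes. Their bases differ, since a lower call requires 5 or more in hESC. As deposited, 36 of 37 proteasome and all 77 mitochondrial ribosome genes stood there, beside 6639 of the 11479 detected genes. Nearness to the share of all detected genes therefore does not make these lists typical. The ZNF share was already near that of all genes as deposited (27.3%), but 161 of the 385 stood at 5 or more in hESC and could be called lower. The ZNF median was -0.88 as deposited, beside -0.49 for all detected genes. The shares of aminoacyl-tRNA synthetases (35.3%), cell cycle genes (25.6%) and polycomb and chromatin genes (6 of 24) stayed above that of all genes after the removal.

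Single genes show the size of the shift. CDK1, the mitotic kinase, went from 71.0 to 14.4 at a transcript GC content of 35.6%, a difference of -2.23 as deposited and -0.42 with the trend removed. EIF3E, a subunit of a translation initiation factor, went from 364 to 78.4 (-2.20; -0.41) and CALM2, a calmodulin, from 326 to 93.1 (-1.80; -0.01). TXN, which encodes thioredoxin, went from 187 to 74.2 and changed sign (-1.32; 0.47). For such genes the call rests on the treatment of GC content. Other genes of these lists stayed lower: TOP2A, the replication-linked topoisomerase, went from 71.7 to 7.00 (-3.18; -1.48), BUB1B, of the spindle checkpoint, from 52.2 to 6.82 (-2.77; -1.56) and HELLS, a chromatin remodeller, from 70.5 to 5.57 (-3.44; -1.71).

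The 3 higher members of the cell cycle list were 2 inhibitors of cyclin-dependent kinases and a cyclin. CDKN1C, which encodes the inhibitor p57, stood at 2.35, 4.17, 42.9 and 74.3 in hESC, MES, HEP and HPC (4.49; 4.31). CDKN1A, which encodes p21, stood at 4.73, 25.2, 28.8 and 77.5 (3.78; 3.76). CCND3, the D-type cyclin prominent in blood, stood at 5.94, 12.8, 29.6 and 88.6 (3.69; 3.64). Each was higher in every later library than in the one before it.

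**Figure D4:**
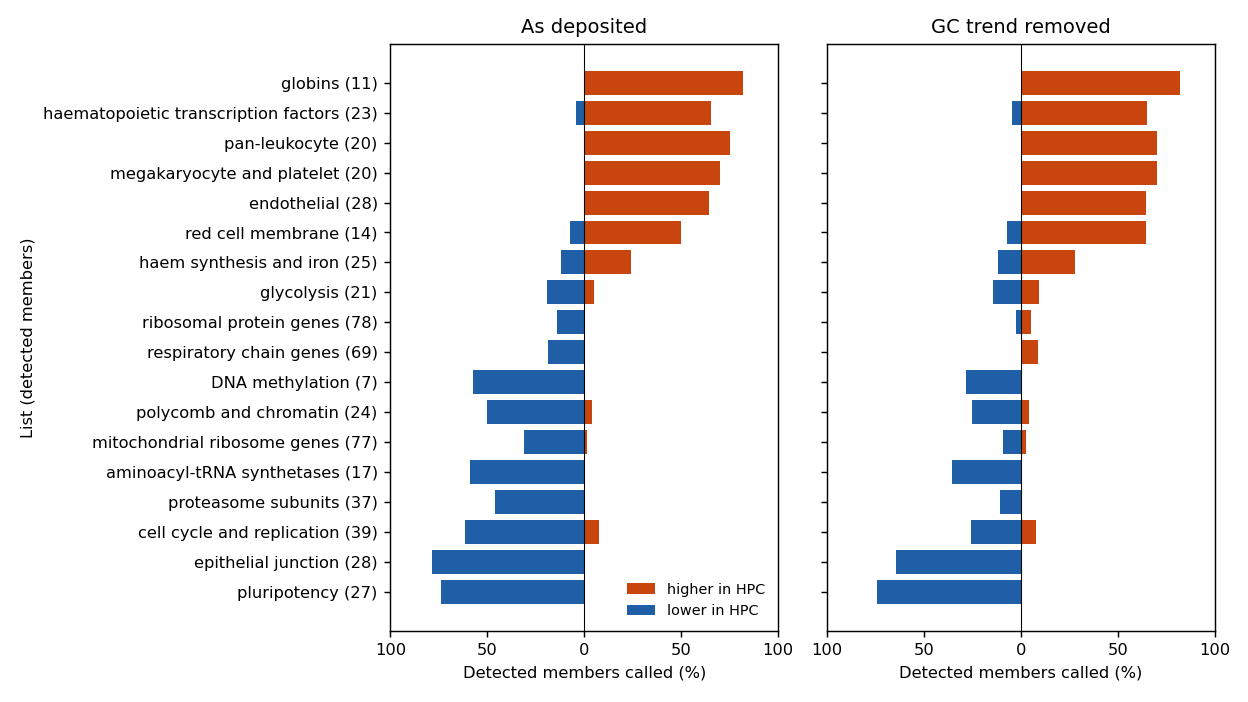
Share of the detected members of each list called higher (orange, to the right) or lower (blue, to the left) in HPC, as deposited and with the GC trend removed; detected members in parentheses, 1 library a side. Globins, blood transcription factors, platelet and endothelial genes and the pluripotency list have the same counts in both panels, while the blue bars of proteasome subunits go from 17 of 37 to 4 and those of cell cycle genes from 24 of 39 to 10.

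Gains were led by globins. HBG2, a gamma-globin gene, went from 1.86 in hESC to 1509 in HPC (9.04; 9.30), the largest difference of all genes, and stood at rank 38 of 17630 in HPC. HBG1 went from 0.61 to 655 and HBE1 from 0.39 to 442 (8.32; 8.49). HBD went from 0.19 to 170, HBA1 from 0.14 to 70.8 and HBA2 from 0.41 to 51.0. The near-identical pairs HBG1 and HBG2, and HBA1 and HBA2, share reads, so the split within a pair is uncertain. HBZ, the embryonic zeta-globin, was listed at 0 in hESC, MES and HEP and at 17.3 in HPC, and HBB, the adult beta-globin, was listed at 0 in the same 3 libraries and at 8.32 in HPC. These 2 were singled out after their values were seen.

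Together 9 of the 11 detected globin-list members were higher under both treatments, with a median of 5.21. No member stood at 5 or more in hESC, so none could be called lower. The 5 beta-like genes summed to 3.05 in hESC and 2785 in HPC, and the 5 alpha-like genes to 2.60 and 155. The beta-like sum was thus 17.9 times the alpha-like sum in HPC under the same assumption of values per length. All 10 globin genes made up 0.834% of the HPC sum. AHSP, the alpha-globin chaperone of maturing red cells, did not accompany them, at 3.22 in hESC and 0.93 in HPC, a gene singled out after its values were seen.

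Transcription factors of blood stood far above their stem cell level. Of 23 detected members of that list 15 were higher and 1 lower under both treatments, with a median of 3.46. As deposited, 14 were gained, and so detected only through HPC, and 2 stood at 5 or more in hESC, as a lower call requires. LMO2, a bridging cofactor, went from 0.84 to 81.5, LYL1 from 0.39 to 56.5, GATA2 from 0.07 to 52.6 and TAL1 from 0.05 to 43.2. GATA1 went from 0.02 to 41.5 and KLF1, the red cell Kruppel-like factor, from 0.07 to 33.0. NFE2L3, a relative of NFE2, was the member that was lower (47.3 to 2.29). RUNX1, required for definitive blood in the embryo, did not reach the threshold of 5 (listed at 0 in hESC, 2.43 in HPC), and HOXA9 was at 0.02 in HPC; both were singled out after their values were seen.

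Red cell surface and haem genes were gained in part. RHAG, the Rh-associated glycoprotein, went from 0.05 to 49.6 and ICAM4 from 0.44 to 40.9. GYPC, a glycophorin, went from 14.8 to 102. GYPB and GYPE, glycophorins so alike that their reads cannot be fully separated, were listed at 0 in hESC and stood at 20.7 and 17.4 in HPC. Genes of the late red cell membrane stayed near 0: SLC4A1, which encodes band 3, was at 0.02 in HPC and EPB42 at 0.32, both singled out after their values were seen. In the list, 7 of 14 detected members were higher and 1 lower (9 and 1 with the trend removed). Of the 14, 3 stood at 5 or more in hESC, as a lower call requires. The lower member was SLC2A1, the glucose transporter GLUT1, which went from 78.7 to 26.1.

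Among haem and iron genes, ALAS2 went from 0.06 to 40.3 (5.29; 5.30) and UROD, a later enzyme of the pathway, from 68.0 to 234. BLVRB, a biliverdin reductase abundant in red cells, went from 30.1 to 116, and SLC40A1, the iron exporter ferroportin, from 0.01 to 9.50. The list was mixed: 6 of 25 members were higher, 3 lower and 9 retained, and with the trend removed 7 were higher and 3 lower. Among all detected genes 7.16% were higher and 24.2% lower as deposited. The lower members were FLVCR1, a haem exporter (13.0 to 1.03), HMOX1, which degrades haem (22.0 to 7.41), and TFRC, the transferrin receptor (48.6 to 16.8). TFRC lost its call with the trend removed (-1.48; -0.07).

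Megakaryocyte and platelet genes had 14 of 20 detected members higher and none lower under both treatments, with a median of 3.05. Only 1 member stood at 5 or more in hESC, as a lower call requires. ITGA2B, the integrin chain CD41, went from 1.43 to 283 and its partner ITGB3 from 0.09 to 74.0. PLEK, a substrate of protein kinase C in platelets, went from 0.09 to 63.5, PF4, a platelet chemokine, from 1.27 to 30.3 and PTGS1, which makes thromboxane precursors, from 0.30 to 27.8. MMRN1 went from 0.03 to 12.9. Late platelet genes were low, with PPBP at 0.69 and TUBB1 at 1.58 in HPC, both singled out after their values were seen.

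Pan-leukocyte genes had 15 of 20 detected members higher and none lower (14 and none with the trend removed), with a median of 3.15. SPN, which encodes the sorted antigen CD43, was among the higher members. Only 2 members stood at 5 or more in hESC, as a lower call requires. FERMT3, the integrin activator kindlin-3, went from 0.51 to 158 and ARHGDIB, a regulator of small GTPases in blood cells, from 0.36 to 139. LAPTM5, a lysosomal protein of blood cells, went from 0.16 to 51.1 and PTPN7 from 0.05 to 17.2. TYROBP, a signalling adaptor, was listed at 0 in hESC and stood at 17.2. CLEC11A, a growth factor for blood progenitors, was outside the list and went from 1.26 to 184.

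Markers of committed white cells were fewer. Of 13 detected myeloid members 4 were higher and none lower: MS4A3 (listed at 0 in hESC, 15.6 in HPC), LYZ, which encodes lysozyme (0.43 and 11.6), CD33 (listed at 0, then 5.42) and AIF1 (9.34 and 31.5). With the trend removed 5 were higher. Only 1 of the 13 stood at 5 or more in hESC, as a lower call requires. The list summed to 16.1 in hESC and 89.7 in HPC, and MPO (0.08 in HPC) and CD14 (0.02) were near 0 in both libraries. SPI1, which encodes the myeloid factor PU.1, was listed at 0 in hESC and stood at 11.9. Among lymphoid genes 11 of 17 measured members were below 1 in both libraries, CD3E among them (0.03 in HPC), while CD79B was higher (2.56 and 16.0) and LCK was lower. The genes of this paragraph other than the called members were singled out after their values were seen.

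Receptors for blood growth factors were less uniform than the factors of the nucleus. Of 14 detected members 5 were higher and 1 lower as deposited, and 6 and 1 with the trend removed. As deposited, 3 of the 14 stood at 5 or more in hESC, as a lower call requires. KDR, the VEGF receptor, stood at 24.5, 62.4, 210 and 88.3 in hESC, MES, HEP and HPC (1.81; 2.64). TEK, the angiopoietin receptor, went from 6.58 to 18.4, ACVRL1, an endothelial receptor of the TGF-beta family, from 0.14 to 11.9 and IL11RA from 0.34 to 13.4. FGFR1 was the lower member, at 31.2 and 6.49. KIT, the stem cell factor receptor, was low at both ends (3.37 and 2.57), and EPOR, the erythropoietin receptor, stood at 2.40 and 3.61; these 2 were singled out after their values were seen.

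Endothelial genes remained high in the sorted progenitors. Of 28 detected members 18 were higher than in hESC and none lower under both treatments, with a median of 2.22. TAL1 stands in this list and in that of blood transcription factors, so the counts of these lists are not separate. Of the 28, 6 stood at 5 or more in hESC, as a lower call requires. The list summed to 107, 146, 1878 and 793 in hESC, MES, HEP and HPC. PLVAP, an endothelial vesicle protein, stood at 0.35 in hESC, 140 in HEP and 57.8 in HPC, TIE1 at 0.91, 60.0 and 54.7, and ESAM was listed at 0 in hESC, then 28.2 and 21.7. STAB1, a scavenger receptor, and ICAM2 were higher still in HPC than in HEP (24.7 and 51.2, and 73.2 and 113). CD31 is itself an endothelial antigen; whether these values came from endothelial cells in the gate or from the blood cells was not tested.

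Markers of other cell types were mixed. The smooth muscle and mesenchyme list had 6 of 14 detected members higher and 3 lower, and summed to 399 in hESC, 1924 in HEP and 595 in HPC. COL3A1, a fibrillar collagen, went from 0.45 to 41.7, FN1, which encodes fibronectin, from 12.2 to 90.0, ACTA2 from 0.72 to 19.2 and VIM from 34.2 to 176, while TAGLN went from 94.8 to 12.4. DCN (0.03 in HPC) and MYH11 (0.02) were near 0. TIMP3, an inhibitor of matrix proteases, was outside the list and went from 0.84 to 201.

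Among 6 detected cardiomyocyte members, MYL4, an atrial and embryonic myosin light chain, was higher (0.26 to 213) and 2 were lower, and TNNT2 was listed at 0 in HPC. DLK1, put in the neural list, was gained there (0.19 to 34.0) beside 4 lower members of 6 (3 with the trend removed, where FABP7 went from -1.62 to -0.30), and 24.2% of all detected genes were lower as deposited. PAX6 was listed at 0 at both ends. None of 5 detected trophoblast members reached 5 in either library, so none could be called, and CGA was listed at 0. Of 7 detected endoderm members HHEX and CXCR4, which blood and vessel cells also express, were higher (12.1 and 5.74 in HPC), and ALB was listed at 0. GAD1, which makes the transmitter GABA, was in no list and went from 0.20 to 75.0 by way of 54.0 in HEP. The part of other cell types in the progenitor values was not tested. DCN, MYH11, TNNT2, PAX6, CGA and ALB were singled out as defining markers after the values were seen.

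Genes of stress and handling also moved. Of 23 detected immediate early and heat shock members 7 were higher and 4 lower (7 and 3 with the trend removed), among them FOS (4.00 to 70.5), JUNB (2.73 to 38.8), EGR1 (0.32 to 7.42) and DUSP1 (1.95 to 13.7). HSP90AA1, a heat shock chaperone, went the other way, from 216 to 40.0. Of the list 30.4% were higher and 17.4% lower, beside 7.16% and 24.2% of all detected genes. HPC were sorted and no sort is described for hESC, so handling and cell type cannot be told apart for these genes.

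The 10 highest retained genes outside the ribosomal protein, histone and mitochondrial ribosome families included several of translation and of the cytoskeleton. Highest was EEF1A1, which brings tRNA to the ribosome, at 5231 in hESC and 4016 in HPC. GAPDH stood at 2474 and 2215, and GNB2L1, which encodes the ribosomal scaffold RACK1, at 1728 and 1839. EEF1G stood at 1447 and 2011, EEF2 at 888 and 1305, and the chaperone HSPA8 at 1819 and 1372. MYL6, ACTG1 and TMSB10, of the actomyosin system, stood at 1376 and 1310, 1091 and 1071, and 1937 and 1445. PTMA, which encodes prothymosin alpha, stood at 1304 and 725. Several of these genes have many processed pseudogenes, with which reads can be shared. Ribosomal protein genes had 67 of 78 detected members retained and 11 lower, and took 28.6% of the sum in hESC and 29.9% in HPC. With the trend removed only 2 were lower and 4 higher.

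Glycolysis genes kept a similar share of the summed values, with a change of transporters. Of 21 members 15 were retained, and 20 of the 21 stood at 5 or more at each end, which a retained call requires. Over all genes, 3155 of the 4448 at 5 or more in both libraries were retained, so the list was near that share. The retained counts of other lists are best read against the same share. The glycolysis list summed to 7678 in hESC and 6234 in HPC, 1.80% and 1.77% of all values. SLC16A3, a lactate exporter, went from 1.24 to 73.6 (5.06; 4.90), while SLC16A1, its relative, went from 178 to 37.8 (-2.20; -1.12) and SLC2A3, a glucose transporter, from 172 to 67.4 (-1.34; -0.56). LDHB, a lactate dehydrogenase subunit, went from 1362 to 292 (-2.22; -1.12). Respiratory chain genes had 54 of 69 retained and 13 lower as deposited, and 6 higher and none lower with the trend removed. Housekeeping genes had 17 of 25 retained, 2 higher and 3 lower, and 5 higher and 1 lower with the trend removed. The calls of the glycolysis list were 1 higher and 4 lower, and 2 and 3 with the trend removed. The medians of the glycolysis (-0.16), housekeeping (-0.21), ribosomal protein (-0.14), respiratory chain (-0.26) and mitochondrial ribosome lists (-0.48) turned positive with median-of-ratios scaling (0.44, 0.39, 0.46, 0.32 and 0.11), so none of them is given a direction. The medians of the integrin and solute carrier families also changed sign with that scaling. The other lists kept the sign of their median under every scaling and under both removals of the GC trend.

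Histone cluster genes had 51 of 65 detected members retained, 7 higher and 6 lower (13 and 6 with the trend removed), and their share of the sum was 9.62% in hESC and 15.7% in HPC. HIST1H1E, a linker histone, went from 207 to 547, whereas HIST1H1A went from 14.4 to a listed 0. Members of this family are near-identical and share reads. Antigen presentation was also divided: B2M, the light chain of class I molecules, went from 50.2 to 226 (2.15; 3.89) and HLA-E from 7.43 to 44.7, while PSMB8, an immunoproteasome subunit, went from 11.6 to 1.64 and TAP2, of the peptide transporter, from 5.54 to 1.10. Of 11 detected members 2 were higher and 2 lower, and TAP2 was no longer called with the trend removed.

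The path between the end points was read from MES and HEP. Of the 235 gained genes 26 first reached 5 at the MES stage, 91 at HEP and 118 at HPC, so the last group was the largest. All globins among them belonged to that last group, with GATA1 (0.61 in HEP, 41.5 in HPC), ITGB3 (0.56 and 74.0), PLEK (0.05 and 63.5) and ALAS2 (0.73 and 40.3). The HEP group held LMO2 (56.0 in HEP), TAL1 (50.4), LYL1 (38.1), GATA2 (25.9), FERMT3 (37.1) and NFE2 (5.50). Those of MES included MYL4 (19.6 in MES) and APLNR (344). Gained is not the same as rising to the end: 28 of the 235 stood at least 2-fold higher in HEP than in HPC, APLNR among them (250 and 15.6).

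Of the 377 lost genes 35 first fell below 1 at the MES stage, 217 at HEP and 125 at HPC. The step into HEP is also the one with the strongest GC trend (correlation 0.73), and for the 189 genes lost under both treatments the counts were 23, 77 and 89. SOX2 was at 0.41 by MES. TDGF1 was still at 165 in MES and at 5.03 in HEP, and POU5F1 at 568 and 112. LIN28A stood at 194 and 167, nearly level between these stages. These genes thus left their stem cell level at different steps.

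**Figure D5:**
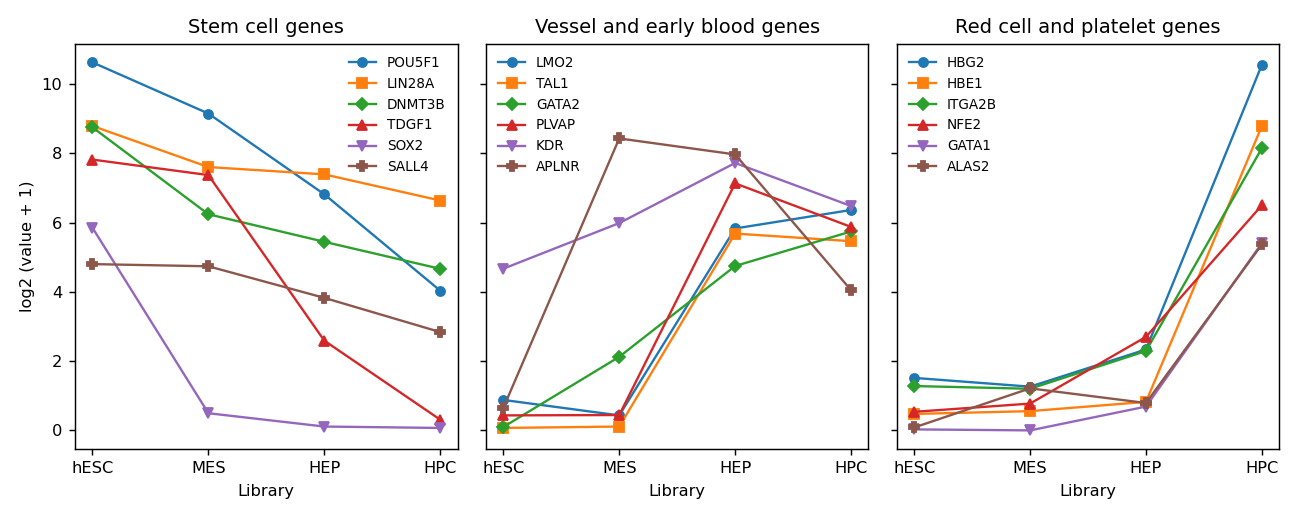
log2(value + 1) of 18 genes in the 4 libraries in order of culture (1 library each, lines join the libraries for reading only). Stem cell genes decline at different steps, LMO2 and TAL1 are high from HEP on, and globins and GATA1 are high in HPC alone among the 4 libraries.

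Few retained genes made a large excursion in between. By a rule of 4-fold, which leaves smaller excursions uncounted, 31 of the 3155 (0.983%) lay 4-fold or more away from both ends in MES or HEP. SERPINE2, a protease inhibitor, stood at 13.5, 409, 48.9 and 12.9 in hESC, MES, HEP and HPC, and COL5A2, a fibrillar collagen, at 13.8, 436, 100 and 8.92. EGFL7, a secreted endothelial protein, stood at 32.9, 21.4, 216 and 36.6, so its end values were alike although HEP was far above both. MATK, a kinase of blood cells, did the reverse at 16.7, 0.71, 0.34 and 12.0, and MYCN, a MYC family factor, stood at 26.5, 12.0, 4.93 and 49.6. These genes were singled out from the 31 after their values were seen.

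In some families 1 paralogue was lower where another was higher. The pairs were put together after the values were seen and carry no count. PHC1, a subunit of polycomb complex PRC1, went from 95.0 to 5.10 (-3.98; -4.01), and PHC2 from 1.56 to 20.4 (3.06; 3.02). ITGB5 went from 57.5 to 4.67 and ITGB3 from 0.09 to 74.0; ITGA6, which pairs with laminin-binding beta chains, went from 40.1 to 2.15 and ITGA2B from 1.43 to 283. CCND1 went from 30.5 to 11.6 (-1.32; -1.33) while CCND3 was higher. CLDN6 went from 127 to 4.23 and CLDN5, the endothelial claudin, from 0.47 to 5.23, so the gain was far smaller than the loss. CLDN5 was no longer called with the GC trend removed, and the other calls of these pairs held.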

How the data were processed

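RNA was profiled in 4 libraries of H1 cells; per the labels' protocols it was extracted with Trizol and 2 ug of total RNA went into the Illumina TruSeq RNA kit. The authors deposited 1 normalised expression signal per gene and library. The tools named in the submitters' processing notes are BWA, Bowtie and RSEM, with build hg19; versions, roles, annotation, strand and the choice of FPKM or TPM: not given in the sources used here. Depth is unknown, so no counting interval is given. The values summed to 426980 in hESC and 352604 in HPC. Symbols turned into dates in 28 rows; 4 of these, under 2 names, were dropped.

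From the deposited signal, log2 differences used a pseudocount of 1, and calls a minimum of 5 and a log2 difference of 1. GC content was the median over protein-coding transcripts of GENCODE 29 (98.9% of genes matched; another build than hg19, no coordinates taken). Its trend, the median difference in 50 bins averaged over 5 neighbours, was divided out evenly over both libraries. Promoters came from RefSeq (GRCh38.p14). Members were described in 28 lists and 15 families named by symbol, by counts and medians beside all detected genes. Members and lists were chosen with earlier results of these data known. Genes named were the 15 largest differences each way among genes at 10 or more in the higher library, the 10 highest gained, lost and retained, markers and sort antigens, up to 6 called members a list with those called against their list, members of the stem cell, LIN28, methylation and epithelial lists at 5 or more in both, and the 10 genes most moved by the GC removal; any other gene is marked in the text as singled out later. Alternatives changed the pseudocount, minimum, fold, scaling and GC treatment. The procedure was tested on simulated data. Software was Python 3.11.15 with pandas 2.3.3, numpy 2.4.6 and statsmodels 0.14.6.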

Additional observations from a re-analysis of the deposited data

How the results depend on the processing

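Counts of calls followed the thresholds and the scaling. With a pseudocount of 5, 1813 genes were lower. Without a minimum 1242 were higher. At a minimum of 20 there were 332 higher, 1126 lower, 57 gained, 38 lost and 1183 retained genes, and at a fold of 4 there were 383 higher and 1088 lower. Median-of-ratios scaling gave 1583 higher, 1621 lower and 216 lost, and upper quartile scaling 1475, 1702 and 230. A common total without ribosomal protein, mitochondrial ribosome, histone and globin genes gave 1327, 1776 and 240. Removing the GC trend by bins gave 1195 lower and 201 lost genes, and by lowess 1166 and 197. With a bound of 0.5 in HPC, 174 were lost. The share of higher calls was 46.4% with upper quartile scaling, 42.8% without those families, 49.3% with the GC trend removed by bins and 50.3% by lowess. Every other count that was run stayed within 1.5 times of the one reported, and the Spearman correlation with GC content was 0.56 over genes with a mean of 20 or more. Gained and lost genes without a minimum were not run, since their rules rest on it.

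Of the 243 genes named by the rule, 4 changed sign when the GC trend was removed by bins and by lowess: IVNS1ABP (0.15 and 0.28), POLR2K (0.22 and 0.32), NTS (0.35 and 0.66) and TXN (0.47 and 0.45). A further 37 by bins and 40 by lowess gained or ended a call. With median-of-ratios scaling 25 did so, with upper quartile scaling 22, at a fold of 4 52 and at a minimum of 20 65. Under every other setting at most 15 did. No paired analysis was possible because each group is 1 library. With 1 library a side and unknown depth, no difference between hESC and HPC can be separated from one between these 2 libraries.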
